A study of Mus musculus with 2 samples.

Results

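The cytochrome P450 enzymes of mouse LSEC (liver sinusoidal endothelium, the perforated lining of the hepatic capillaries) were described on 2 arrays, one from a wild-type and one from an ob/ob mouse. The members are all probes of the array whose gene symbol is Cyp followed by a family number, a subfamily letter and a gene number. They comprise 131 of 43020 spots and 113 of 39429 probes, and represent 90 of 31894 genes. An accession matched 88 of the 90 genes in the RefSeq gene table of assembly GRCm38.p6. The symbol there was the same for 87 of them, and the gene named Cyp2c44 on the array is Cyp2c23 in RefSeq.

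Cells came from collagenase-digested livers of male mice at 8 weeks of age and were kept overnight in serum-containing medium before RNA extraction. The wild-type group is 1 mouse and 1 array, and so is the ob/ob group. The ob/ob mouse lacks functional leptin and becomes obese. The strain background and any sort or marker selection of the LSEC are not given in the sources used here. With 1 array per genotype no test was possible, and every difference below compares these 2 arrays only. Each difference is ob/ob minus wild-type, in log2 units, after scaling each array to its 75th percentile of signal. The ± after a difference is the SD that the scanner's error model gives for the spots, a technical error that holds no spread between mice. Spot signals are linear intensities. "Detected" means well above the local background in the scanner's own call, and "higher" or "lower" means a difference of at least 2-fold.

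P450 enzymes are heme proteins that insert 1 atom of molecular oxygen into their substrate, with electrons from NADPH passed on by P450 reductase (Por) in the endoplasmic reticulum or by ferredoxin in mitochondria. Families 1, 2 and 3 oxidise drugs, toxicants and arachidonic acid, and family 4 hydroxylates the terminal carbon of fatty acids and eicosanoids. The remaining families make and break down steroids, bile acids, retinoic acid and vitamin D. In the liver the drug-metabolising P450s are best known from hepatocytes, where many lie in the pericentral zone. Many are induced through the aryl hydrocarbon receptor (AhR, family 1), the nuclear receptors CAR and PXR (Cyp2b, Cyp2c, Cyp3a) or PPARα (Cyp4a).

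P450 genes of a subfamily are close copies of each other, so the probe sequences bear on which gene a signal can be credited to. Probes were compared only with each other and not with transcripts, so a probe without a match is not shown to be specific. Among 122 probes for P450 genes, members and others, 7354 pairs from different genes were set against each other without gaps, and 8 pairs matched at 80% or more of at least 30 aligned bases. Of these 8 pairs, 3 are printed below, and the signals of the remaining ones follow them. Each line is a 30-base stretch of the 60-base probe, 5′ to 3′ as the scanner files give it, and capitals mark the bases that differ within the pair. Cyp2c67 and Cyp2c68 match at 55 of 59 bases, and their probes lie at chr19:39683429-39683488 and chr19:39763420-39763479 (mm9, as are all probe coordinates here).
Cyp2c67: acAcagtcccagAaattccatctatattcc
Cyp2c68: acCcagtcccagGaattccatctatattcc
The brightest probes of Cyp4a10 (chr4:115206200-115206259) and Cyp4a31 (chr4:115251553-115251612) match at 44 of 47 aligned bases.
Cyp4a10: atcttccctcctttctgcaataaagTtccC
Cyp4a31: atcttccctcctttctgcaataaagGtccA
One of the 2 probes of Cyp2a4 (chr7:27099880-27099939) matches a probe of the pseudogene Cyp2a21-ps (chr7:27737339-27737398) at 52 of 56 bases. The Cyp2a4 difference given further on rests on its other probe.
Cyp2a4: acTAtgagtttcttgtcccGttgaTcctgg
Cyp2a21-ps: acACtgagtttcttgtcccAttgaGcctgg
Both probes of each of these 3 pairs gave similar values. Signals on the wild-type and ob/ob arrays were 13.5 and 140 for Cyp2c67 and 13.4 and 119 for Cyp2c68. They were 33.8 and 153 for Cyp4a10, and 32.1 and 146 for Cyp4a31. The pair of Cyp2a4 and its pseudogene read 9.54 and 520, and 12.3 and 459. Which of the paired transcripts gave the signal cannot be told apart by these probes. The remaining pairs gave less similar signals. Cyp2j7 and Cyp2j8 (32 of 39 bases) read 29.1 and 20.9 against 691 and 979. Cyp2c37 and Cyp2c50 (35 of 40) read 13.9 and 72.2 against 10.1 and 168. Cyp2c29 and the dimmer probe of Cyp2c37 (27 of 31) read 5.19 and 88.7 against 2.54 and 6.17. Cyp3a44 and Cyp3a41b (46 of 53) read 2.61 and 2.45 against 3.48 and 24.5. Other probes of Cyp4a31 and Cyp4a10 (54 of 60) read 2.63 and 9.81 against 14.3 and 32.2. The probes are written here by genome position only, because exon and UTR models of mm9 were not used here.

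Of the 90 P450 genes, 42 were detected on both of the arrays, 22 in ob/ob alone, 2 in wild-type alone and 24 on neither. Over all genes of the array the corresponding shares were 6.8% in ob/ob alone, 0.856% in wild-type alone and 35.4% on neither. Among the 42 P450 genes detected on both, 14 were higher in the ob/ob cells, 1 was lower and 27 were within 2-fold. Of the 18147 genes of any kind detected on both, 5.83% were higher and 2.29% were lower. The median difference of the 42 was 0.37, against -0.12 over all genes, and their range was -1.01 to 3.79. The sign of this P450 median depended on the processing, since it was 0.09 after scaling on the array median, 0.23 after quantile normalization, 0.14 after normexp with quantile normalization and -0.31 after normexp with the 75th percentile. Normexp is a model-based correction of the raw signal with an added offset of 50, which lifts dim spots of both arrays to a similar level before the arrays are scaled. After normexp with the 75th percentile, 3827 of the 18147 genes, and 7 of the 42 P450 genes, were at least 2-fold lower. After normexp with quantile normalization, 130 genes, and 0 of the P450 genes, were.

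The P450 genes were also split by their level in the wild-type cells. Of the 16 with a wild-type signal of 100 or more, 1 was higher (Cyp4f18) and none was lower, with a median of -0.026. Of the 26 with a signal under 100 there, 13 were higher and 1 was lower, with a median of 0.99 (-0.44 after normexp with the 75th percentile). In the same signal classes 3.51% and 12.4% of all genes were higher. Of the 14 higher P450 genes, 6 were at least 2-fold higher under all 5 scalings and background corrections tried, namely Cyp2a12, Cyp2d10, Cyp2d26, Cyp2e1, Cyp2f2 and Cyp3a11. The sign turned under normexp with the 75th percentile for 7 of them, Cyp2a4, Cyp2c37, Cyp2c70, Cyp2d40, Cyp4a10, Cyp4a31 and Cyp4v3. Cyp4f18 kept its sign under all 5 and fell under 2-fold under both normexp settings.

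For the 22 genes detected in ob/ob alone, a lower bound was taken as the ob/ob value over the dimmest detected signal of the wild-type array, or over the gene's own wild-type value where that was brighter. The bound was at least 2-fold for 17, under 2-fold for 3 and could not be given for 2 (Cyp27a1 and Cyp2d13). Of all 2170 genes detected in ob/ob alone, 19.4% had a bound of at least 2-fold. Of the 17, 15 kept a bound of 2-fold after scaling on the array median and 15 after quantile normalization. After normexp only 6 kept it with quantile normalization (Cyp1b1, Cyp2b10, Cyp2c50, Cyp2c54, Cyp3a16 and Cyp4a14) and 1 with the 75th percentile (Cyp4a14).

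**Figure D1:**
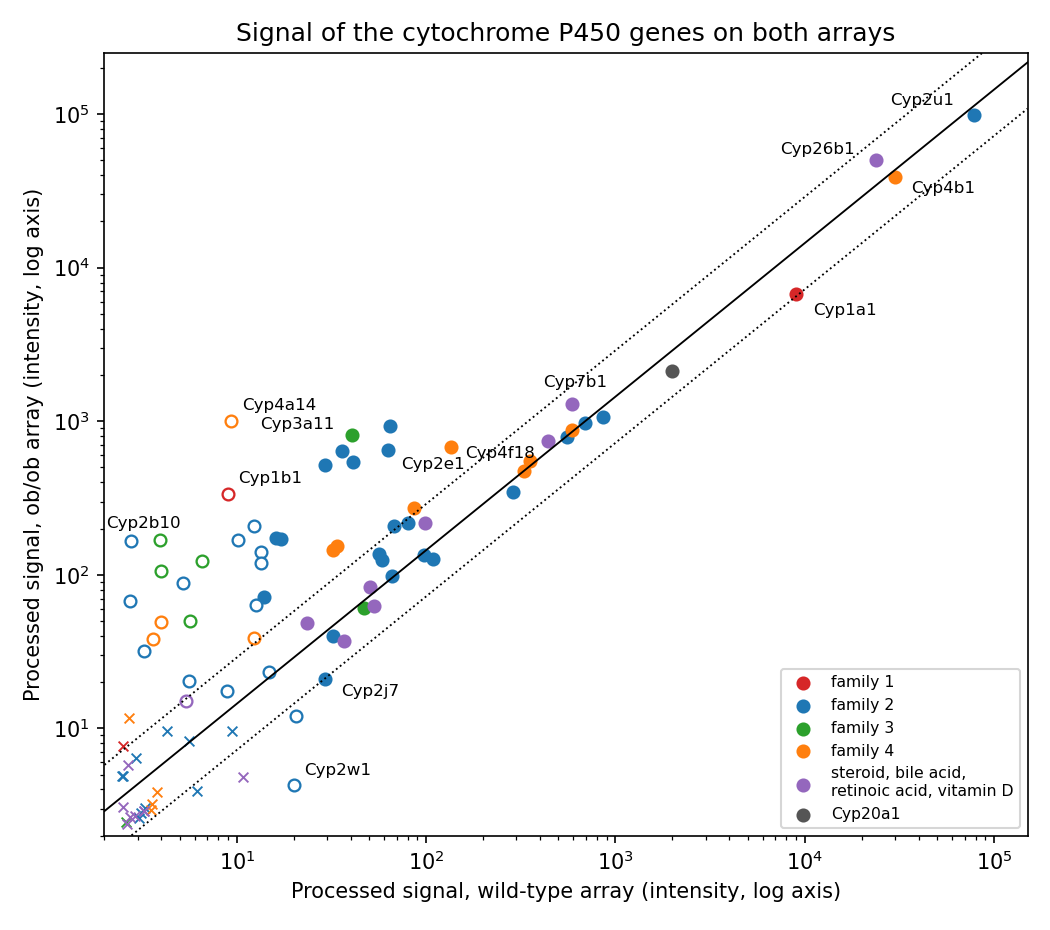
Processed signal (intensity, log axes) of the 90 P450 genes on the wild-type array (horizontal) and the ob/ob array (vertical), coloured by family. Filled points were detected on both, open points on 1 and crosses on neither, the solid line marks equal scaled signal and the dotted lines 2-fold. Genes with a wild-type signal of 100 or more lie between the dotted lines except Cyp4f18, whereas many dimmer genes lie above them.

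Family 1 holds the AhR targets, and its 3 genes did 3 different things. Cyp1a1, the inducible hydroxylase of polycyclic aromatics, had a signal of 8997 in the wild-type and 6700 in the ob/ob cells. Its difference was -0.96 ± 0.20 (1.94-fold lower), just short of the threshold, and it ranged from -1.24 with scaling on the array median to -0.63 with normexp. Cyp1b1, which oxidises estradiol and polycyclic aromatics and is known from mesenchymal cells, had signals of 8.97 and 337. It was detected in ob/ob alone, at least 18.9-fold brighter there (chr17:80106547-80106606), a bound that normexp with the 75th percentile took under 2-fold. Cyp1a2, the hepatocyte member, was above background on neither array, with signals of 2.50 and 7.69.

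The receptor gene itself and its other targets did not share 1 direction. Ahr had signals of 14938 and 8150, a difference of -1.41 ± 0.20 that stayed between -1.69 and -1.06 under the 5 scalings. Arnt, its partner, differed by -0.20. Of 6 AhR targets outside the P450s, Nqo1 was lower at -1.49, Ugt1a6a was higher at 1.20 (0.92 with scaling on the array median), and 4 were within 2-fold. By sign alone, Cyp1a1, Nqo1, Aldh3a1 (-0.71), Ahrr (-0.40 ± 0.22) and Gsta1 (-0.30 ± 0.20) lay on the same side as Ahr. Cyp1b1 and Ugt1a6a lay on the other, and Tiparp was near no difference (0.02). The median of all genes was itself negative (-0.12).

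The promoters of Cyp1a1 and Cyp1b1 are shown because these AhR targets differed in direction. Each is the 250 bases before the RefSeq start of the gene, written 5′ to 3′ along the gene's strand (GRCm38.p6), at chr9:57697363-57697612 on the plus strand and chr17:79715062-79715311 on the minus strand. Capitals mark the core of the AhR response element, GCGTG, or CACGC where it stands on the other strand.
Cyp1a1: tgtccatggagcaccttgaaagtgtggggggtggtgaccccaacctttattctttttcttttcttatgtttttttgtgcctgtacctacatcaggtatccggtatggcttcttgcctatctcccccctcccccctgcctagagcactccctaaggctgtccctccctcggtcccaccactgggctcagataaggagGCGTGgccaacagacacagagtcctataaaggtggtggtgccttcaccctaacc
Cyp1b1: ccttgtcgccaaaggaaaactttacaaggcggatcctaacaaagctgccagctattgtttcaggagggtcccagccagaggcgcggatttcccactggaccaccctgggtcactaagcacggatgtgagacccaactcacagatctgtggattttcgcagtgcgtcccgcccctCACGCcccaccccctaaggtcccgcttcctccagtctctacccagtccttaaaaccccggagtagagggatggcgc
The core begins 54 bases before the start of Cyp1a1 and 76 bases before that of Cyp1b1. The letters TATAAA stand 30 bases before the start of Cyp1a1 and are not in this window of Cyp1b1. A promoter was listed for 68 of the 90 P450 genes, 78 promoters in all. GCGTG on either strand was found in 15 of the 78 (19.2%) and in 28.2% of all 32851 promoters of the same length. The nuclear receptor hexamer AGGTCA on either strand was found in 19 (24.4%), against 14.0% of all promoters, and TATAAA on the gene's strand in 19 (24.4%), against 7.59%. None of the 3 motifs contains another, and a match is a description of the sequence only.

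Family 2, the largest, held 46 genes. Of these 22 were detected on both, with 9 higher, 1 lower and 12 within 2-fold and a median of 0.65 (-0.27 after normexp with the 75th percentile). Another 12 were detected in ob/ob alone, 2 in wild-type alone and 10 on neither. Its subfamilies ranged from Cyp2a, with both measured genes higher, to Cyp2j, with none.

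Cyp2e1, the ethanol-oxidising enzyme of pericentral hepatocytes, had signals of 63.2 and 648, a difference of 2.83 ± 0.22 or 7.09-fold (chr7:147960628-147960687). Its second probe gave 2.37, the widest gap (0.45) among the 4 P450 genes with more than 1 probe detected on both. Cyp2f2, which activates naphthalene and is known from airway club cells and periportal hepatocytes, read 35.7 and 637, a difference of 3.62 ± 0.23. Cyp2a12, a steroid hydroxylase, read 29.1 and 517 and also differed by 3.62 (± 0.24). All of these were dim in the wild-type and well above the array's background in the ob/ob cells.

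Cyp2a4, a testosterone 15α-hydroxylase, read 16.2 and 173 with the probe detected on both, a difference of 2.89 ± 0.31 that became -0.082 after normexp with the 75th percentile. In the Cyp2d subfamily, relatives of the human debrisoquine hydroxylase, Cyp2d26 read 64.4 and 930 (3.32 ± 0.21) and Cyp2d10 read 40.9 and 543 (3.20 ± 0.23). Cyp2d40 read 17.2 and 170, a difference of 2.77 ± 0.31 that became -0.17 after normexp with the 75th percentile. The other 3 Cyp2d genes detected on both were within 2-fold. Cyp2d11, with signals of 862 and 1060, differed by -0.23 ± 0.20, Cyp2d22, with 66.3 and 98.7, by 0.04 ± 0.22, and Cyp2d12, with 56.4 and 136, by 0.74 ± 0.22 (-1.02 for Cyp2d22 and -0.67 for Cyp2d12 after normexp with the 75th percentile). Cyp2d34 (3.23 and 32, a bound of 1.79-fold), Cyp2d9 (14.8 and 23.3, 1.09-fold) and Cyp2d13 (8.90 and 17.4, no bound) were detected in ob/ob alone.

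The Cyp2c genes encode epoxygenases and hydroxylases of arachidonic acid, drugs and bile acids. Of 13, 4 were detected on both, 6 in ob/ob alone and 3 on neither. Cyp2c70, which makes the muricholic acids of rodents, read 67.3 and 207, a difference of 1.09 ± 0.21 that fell under 2-fold under the other 4 scalings and was -0.30 after normexp with the 75th percentile. Cyp2c37 read 13.9 and 72.2, a difference of 1.85 ± 0.35 that became -0.85 under the same correction. Cyp2c55, at 80.4 and 216, stood just outside the threshold with 0.89 ± 0.21, and Cyp2c38 at 0.56 ± 0.22. The second probes of Cyp2c37 (2.54 and 6.17) and Cyp2c38 (3.44 and 3.08) were at background on both arrays.

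Cyp2c29 is the one epoxygenase of the array spotted 10 times, which gives a view of the technical spread. On the ob/ob array all 10 spots were above background, from 82.3 to 95.2 with a median of 89.6. On the wild-type array none of the 9 spots kept was above background, and they read 3.40 to 8.38. The spots of the 2 arrays did not overlap, and the bound was at least 4.97-fold. Cyp2c54 (12.3 and 209) was at least 11.7-fold brighter in the ob/ob cells and Cyp2c50 (10.1 and 168) at least 9.41-fold. The other probes of Cyp2c54 read 2.93 and 19.9, detected in ob/ob alone, and 2.48 and 2.35, at background on both. The look-alike pair Cyp2c67 and Cyp2c68 had bounds of 7.17-fold and 6.13-fold. The remaining gene detected in ob/ob alone, Cyp2c44, had a bound of 1.14-fold.

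The Cyp2b genes, classical CAR targets, were above background on no wild-type spot. Cyp2b10 read 2.76 and 167, at least 9.36-fold brighter in the ob/ob cells, and Cyp2b13 read 12.6 and 63.2, at least 3.47-fold. The other 3, Cyp2b9, Cyp2b19 and Cyp2b23, were above background on neither array.

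The Cyp2j genes, whose products epoxidise arachidonic acid outside as well as inside the liver, numbered 7, of which 5 were detected on both, and none of these was higher. Cyp2j8 (691 and 979) differed by -0.03 ± 0.20, Cyp2j6 (551 and 791) by -0.01 ± 0.20, Cyp2j13 by -0.07 ± 0.21 and Cyp2j9 by -0.32 ± 0.21. Other probes of Cyp2j8 and Cyp2j13 were at background on both arrays. Cyp2j7 (29.1 and 20.9) was the single lower P450 gene, at -1.01 ± 0.30, a value on the threshold that was -0.32 after normexp with quantile normalization. Cyp2j5, the renal and hepatic member, read 2.71 and 68.0 and was at least 3.81-fold brighter in the ob/ob cells. Over the 12 arachidonic acid epoxygenases on the array (Cyp2c40 of the list is not on it), 5 were detected on both with none higher or lower, 5 in ob/ob alone and 2 on neither.

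Family 2 also holds genes without a liver-specific role. Cyp2u1, a fatty acid hydroxylase, gave signals of 78130 and 98000, a difference of -0.21 ± 0.20 that was 0.22 after quantile normalization. Its other probe was at background on both arrays (8.94 and 2.98), and the bright probe was designed on an Ensembl transcript that the RefSeq table does not hold, so the level of the gene rests on 1 of 2 probes that disagree. Cyp2r1, a vitamin D 25-hydroxylase, read 287 and 346 (-0.26 ± 0.20), and its second probe gave -0.24. The 2 P450 genes detected in wild-type alone were Cyp2s1 (20.5 and 12) and Cyp2w1 (19.98 and 4.26). Each was at least 2.47-fold brighter in the wild-type cells, and 73.3% of all 273 genes detected in wild-type alone had a bound of at least 2-fold. Both P450 bounds fell under 2-fold after normexp with quantile normalization.

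Family 3, drug and steroid oxidases regulated by PXR, held 7 genes. Cyp3a11, the principal hepatic member of the mouse, read 40.6 and 813, a difference of 3.79 ± 0.23 or 13.9-fold (chr5:146666237-146666296). This was the widest difference among the 42 P450 genes detected on both, and it passed 2-fold under all 5 scalings. Cyp3a16 (3.95 and 169, at least 9.47-fold), Cyp3a25 (6.58 and 123, at least 6.89-fold), Cyp3a59 (3.96 and 106, at least 5.94-fold) and Cyp3a57 (5.66 and 50.3, at least 2.82-fold) were detected in ob/ob alone. Cyp3a13, known from the intestine and lying outside the cluster of the others, read 46.9 and 60.9 and differed by -0.15 ± 0.23, which became -1.29, a lower call, after normexp with the 75th percentile. Its second probe went the other way, at 3.87 and 22.3, and was detected in ob/ob alone. Cyp3a44 was above background on neither array.

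Taking the CAR- and PXR-responsive P450s together, of 9 genes 2 of the 4 detected on both were higher, 4 were detected in ob/ob alone and 1 on neither. Of their receptor genes, Nr1i2, which encodes PXR, was above background on neither array (3.52 and 3.16). Nr1i3, which encodes CAR, read 57.6 and 47.1 and differed by -0.82 ± 0.24. It was at least 2-fold lower under 3 of the other 4 scalings, at -1.10 (array median), -1.08 (quantile normalization) and -1.49 (normexp with the 75th percentile), and -0.31 after normexp with quantile normalization.

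Family 4, the ω-hydroxylases, held 16 genes, of which 8 were detected on both (4 higher, 4 within 2-fold), 4 in ob/ob alone and 4 on neither. The median of the 8 was 0.62 (-0.12 after normexp with the 75th percentile). Cyp4a14, a PPARα target that hydroxylates fatty acids, had signals of 9.37 and 1010. It was at least 56.6-fold brighter in the ob/ob cells (chr4:115158914-115158973), the largest bound among the P450 genes and the one that stayed above 2-fold under all 5 scalings. Cyp4a10 and Cyp4a31, which share probe sequence as shown above, each differed by 1.65 ± 0.24, values that became -0.40 and -0.43 after normexp with the 75th percentile. The other probes of Cyp4a31 were at background on both arrays (2.63 and 9.81, and 3.55 and 8.92). Those of Cyp4a10 were detected in ob/ob alone (3.79 and 117, and 14.3 and 32.2). Cyp4a32 read 12.3 and 38.5, a bound of 2.16-fold.

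Cyp4a12a and Cyp4a12b, whose symbols end in a letter and are outside the name pattern, were also detected in ob/ob alone, with bounds of 4.44-fold and 1.90-fold. All 6 listed PPARα-responsive P450s were either higher (2) or detected in ob/ob alone (4). Over all genes, 5.83% of those detected on both were higher, and 6.8% of all were detected in ob/ob alone. The 2 higher ones are Cyp4a10 and Cyp4a31, and both changed sign after normexp with the 75th percentile. The value of Cyp4a31 rests on the probe that resembles that of Cyp4a10. Cyp4a29, a Cyp4a gene outside the list, was above background on neither array (3.55 and 3.22). Ppara itself read 105 and 152, a difference of 0.00 ± 0.21.

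Cyp4b1, a fatty acid hydroxylase of lung and endothelium-rich tissues, gave 29764 and 39100 and differed by -0.14 ± 0.20 (0.19 after quantile normalization). It lies beside the Cyp4a genes on chromosome 4. Among the leukotriene and fatty acid hydroxylases of the Cyp4f subfamily, Cyp4f13 (593 and 880), Cyp4f16 (352 and 554) and Cyp4f17 (331 and 471) differed by 0.04, 0.12 and -0.02, each ± 0.20. Cyp4f14 and Cyp4f15 were detected in ob/ob alone, with signals of 38.1 and 49.1 there and bounds of 2.13-fold and 2.75-fold.

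Cyp4f18, which inactivates leukotriene B4 in myeloid cells, was the exception among the P450 genes with a wild-type signal of 100 or more. It read 135 and 677, a difference of 1.80 ± 0.21 or 3.48-fold (chr8:74512381-74512440), and 1.40 with its second probe. Both normexp settings left it positive but under 2-fold, at 0.47 and 0.83. Cyp4v3, a fatty acid hydroxylase, read 85.8 and 271, a difference of 1.13 ± 0.21 that fell under 2-fold in the other 4 scalings and was -0.014 after normexp with the 75th percentile. Over the 11 listed ω-hydroxylases, 3 of the 5 detected on both were higher, 5 were detected in ob/ob alone and 1 on neither.

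**Figure D2:**
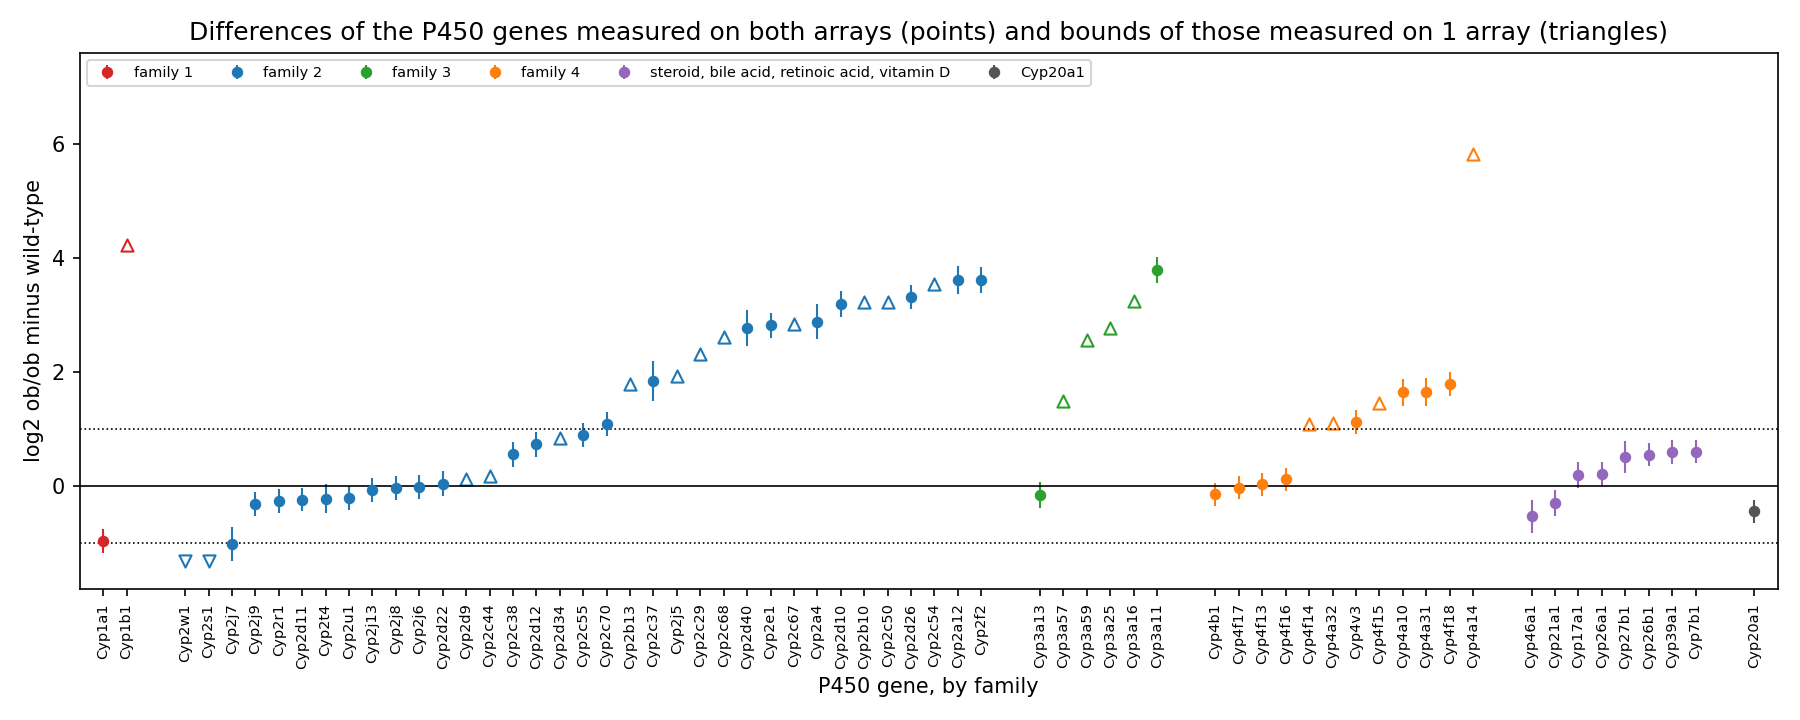
Log2 difference (ob/ob minus wild-type) of the 42 P450 genes detected on both (filled points, bars are the SD of the scanner's error model) and bounds of 22 genes detected on 1 array (open triangles, pointing up for the ob/ob and down for the wild-type array), by family. Dotted lines mark 2-fold. Values of families 2, 3 and 4 reach from -1.01 to 3.79 and bounds up to 56.6-fold (Cyp4a14), while the 8 steroid, bile acid, retinoic acid and vitamin D enzymes lie between -0.53 and 0.61. Of the 14 points above 2-fold, 7 change sign after normexp with the 75th percentile (Cyp2a4, Cyp2c37, Cyp2c70, Cyp2d40, Cyp4a10, Cyp4a31 and Cyp4v3).

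The families of steroid, bile acid, retinoic acid and vitamin D metabolism held 17 genes. The 8 detected on both were all within 2-fold, from -0.53 to 0.61, with a median of 0.37 (-0.72 after normexp with the 75th percentile, where 3 were lower). Of the other 9, 1 was detected in ob/ob alone and 8 on neither.

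In bile acid synthesis, Cyp7a1, the rate-limiting enzyme of the classical pathway, read 3.24 and 2.90, and Cyp8b1, the 12α-hydroxylase, read 3.25 and 2.91. Both were at background on both arrays. Cyp27a1, the sterol 27-hydroxylase that opens the alternative pathway, was spotted 10 times. On the ob/ob array 7 of 10 spots were above background, with a median of 14.1, and on the wild-type array none of 9 was, with a median of 4.78. The highest wild-type spot (9.62) overlapped the lowest ob/ob spot (9.31), and no bound could be given. Cyp7b1, the oxysterol 7α-hydroxylase, was detected on both at 590 and 1300, a difference of 0.61 ± 0.20. Cyp39a1, which acts on 24-hydroxycholesterol, differed by 0.60 ± 0.21 (98.5 and 216), and -0.45 after normexp with the 75th percentile.

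Retinoic acid is broken down by the Cyp26 enzymes. Cyp26b1 gave signals of 23737 and 50400, a difference of 0.55 ± 0.20 that stayed positive under all 5 scalings (0.27 to 0.87). Cyp26a1 gave 439 and 739, a difference of 0.22 ± 0.20, which was -0.06 with scaling on the array median. Cyp26c1 was above background on neither array.

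Of the vitamin D enzymes, Cyp27b1, the 1α-hydroxylase, read 23.5 and 48.8, a difference of 0.52 ± 0.28 (-1.38 after normexp with the 75th percentile). Cyp24a1, the 24-hydroxylase that vitamin D induces, was above background on neither array (2.52 and 3.09). The vitamin D receptor gene Vdr was detected in ob/ob alone, with signals of 13.0 and 331 and a bound of 17.6-fold.

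The steroidogenic genes were mostly at background. Cyp11a1, Cyp11b1, Cyp11b2 and Cyp19a1 (aromatase) were above background on neither array. Cyp17a1 read 50.4 and 83.5 (0.20 ± 0.23) and Cyp21a1 read 53.2 and 62.7 (-0.30 ± 0.23), and the second probe of Cyp21a1 was at background. Cyp20a1, an orphan enzyme in a family of its own, read 1987 and 2120 and differed by -0.44 ± 0.20.

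Many P450 genes stand in clusters of tandem copies. By distance alone, 63 of the 90 lie in 8 groups with gaps under 1 Mb between probes. Not all neighbours are copies, since Cyp1a1, Cyp1a2 and Cyp11a1, of different families, form a group. Within clusters 11 of the 27 genes detected on both were higher and 19 more genes were detected in ob/ob alone. Outside clusters 3 of 15 were higher and 3 more were detected in ob/ob alone. The shares over all genes of the array were 5.83% higher among those detected on both, and 6.8% in ob/ob alone. Of the 14 higher P450 genes, 7 changed sign after normexp with the 75th percentile, and all of these except Cyp4v3 lie in clusters. Whether the differences depend on lying in a cluster was not tested. The Cyp2d cluster (chromosome 15, 82204377 to 82620634) had 3 higher genes, 3 detected in ob/ob alone and 3 within 2-fold. The Cyp2c cluster (chromosome 19, 39116674 to 40228028) had 2 higher, 5 detected in ob/ob alone, 2 within 2-fold and 3 at background on both. In the Cyp3a cluster (chromosome 5, 146151322 to 146920697) 5 of 6 genes were higher or detected in ob/ob alone. In the Cyp2j cluster (chromosome 4, 95712305 to 96294231) that held for 1 of 7. Neighbouring copies share sequence, so they are not independent counts.

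**Figure D3:**
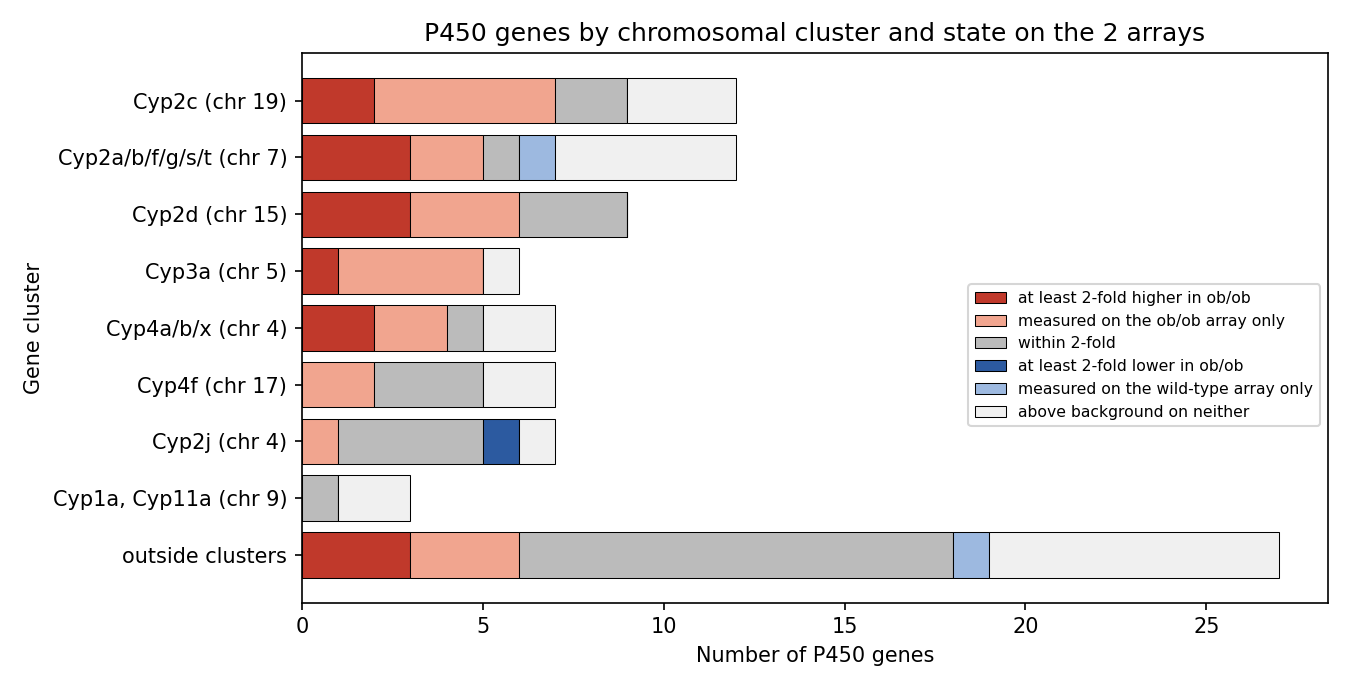
Number of P450 genes (horizontal axis) in each chromosomal cluster and outside clusters (vertical axis), split by state on the 2 arrays. Higher genes and genes detected in ob/ob alone (red shades) make up 7 of 12 genes of the Cyp2c cluster, 6 of 9 of the Cyp2d cluster and 5 of 6 of the Cyp3a cluster, and 1 of 7 of the Cyp2j cluster. The split is that of the 75th percentile scaling, and 7 of the 14 higher genes change sign after normexp with the same percentile.

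The partners of the P450 enzymes were set beside them. All 11 redox partners were detected on both and within 2-fold, with a median of -0.36. Por, the reductase of all microsomal P450s, had signals of 36952 and 28800, a difference of -0.89 ± 0.20 that reached -1.17 with scaling on the array median. Cyb5a, the cytochrome b5 of the endoplasmic reticulum, differed by -0.63. The 12 genes of heme synthesis and breakdown had a median of -0.02. Alas1, the rate-limiting enzyme of heme synthesis, differed by -0.27 ± 0.20. The lower genes of the list were Hmox1, heme oxygenase 1, with signals of 99456 and 63600 (-1.18 ± 0.20), and Blvrb, a biliverdin reductase (-1.19 ± 0.20), and both were within 2-fold after quantile normalization.

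Among 20 regulators of P450 genes, 16 were detected on both, with a median of -0.21. Nr1h3 (LXRα), the oxysterol receptor, was higher at 2.10 and stayed between 1.82 and 2.14 under the 5 scalings. Hnf4a, the hepatocyte nuclear factor, was higher at 1.24, which became -0.46 after normexp with the 75th percentile. Ahr was the lower one.

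P450 proteins whose names fall outside the pattern include the prostanoid synthases. Tbxas1, thromboxane synthase, read 207 and 2090, a difference of 2.80 ± 0.20 that passed 2-fold under all 5 scalings. Ptgis, prostacyclin synthase, read 954 and 1500 and differed by 0.12 ± 0.20 (-0.16 with scaling on the array median). Cyp51, of cholesterol synthesis, differed by -0.53 ± 0.22.

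Markers of liver cell types were set beside the P450 genes. Of the label's own cell type, all 14 sinusoidal endothelial markers were detected on both and within 2-fold, with a median of -0.20, and the scavenger receptor gene Stab2 read 7027 and 8970. Of 14 pan-endothelial markers, 13 were within 2-fold and Sox18 was higher at 1.35. Of 25 hepatocyte markers, 21 were detected on both and 19 of these were higher in the ob/ob cells, with a median of 2.48 and a range of 0.16 to 3.65. Their summed scaled signal was 15.7 for wild-type and 86.7 for ob/ob cells, 5.52 times higher. Alb read 1536 and 19700. Tdo2, Cps1 and Ttc36 were above background on neither array. Of 6 periportal genes detected on both, 1 was higher (Arg1, also known from macrophages), and 5 of 13 were detected in ob/ob alone. Of 11 pericentral genes outside the P450s, 3 were detected on both with none higher (median 0.19), and Gulo, Lect2 and Rgn were detected in ob/ob alone.

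Macrophage and stellate cell markers were counted in the same way. Of 15 macrophage markers detected on both, 13 were higher (median 1.83, summed scaled signal 59.4 and 165), as were 13 of 14 stellate cell and fibroblast markers (median 1.66, summed 15.8 and 52.4, with 4 of 14 still higher after normexp with the 75th percentile). Cyp4f18 and Tbxas1 are known from myeloid cells and Cyp1b1 from mesenchymal cells. All 3 cholangiocyte markers detected on both (Krt8, Krt18 and Spp1, none of them restricted to these cells) were higher as well, while Cldn4 of the same list read 77.5 and 4.58 and was at least 9.58-fold brighter in the wild-type cells. The part of hepatocyte, macrophage, stellate cell or cholangiocyte RNA in the P450 differences was not tested. In RNA from many cells, more cells of a type and more RNA per cell cannot be told apart.

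**Figure D4:**
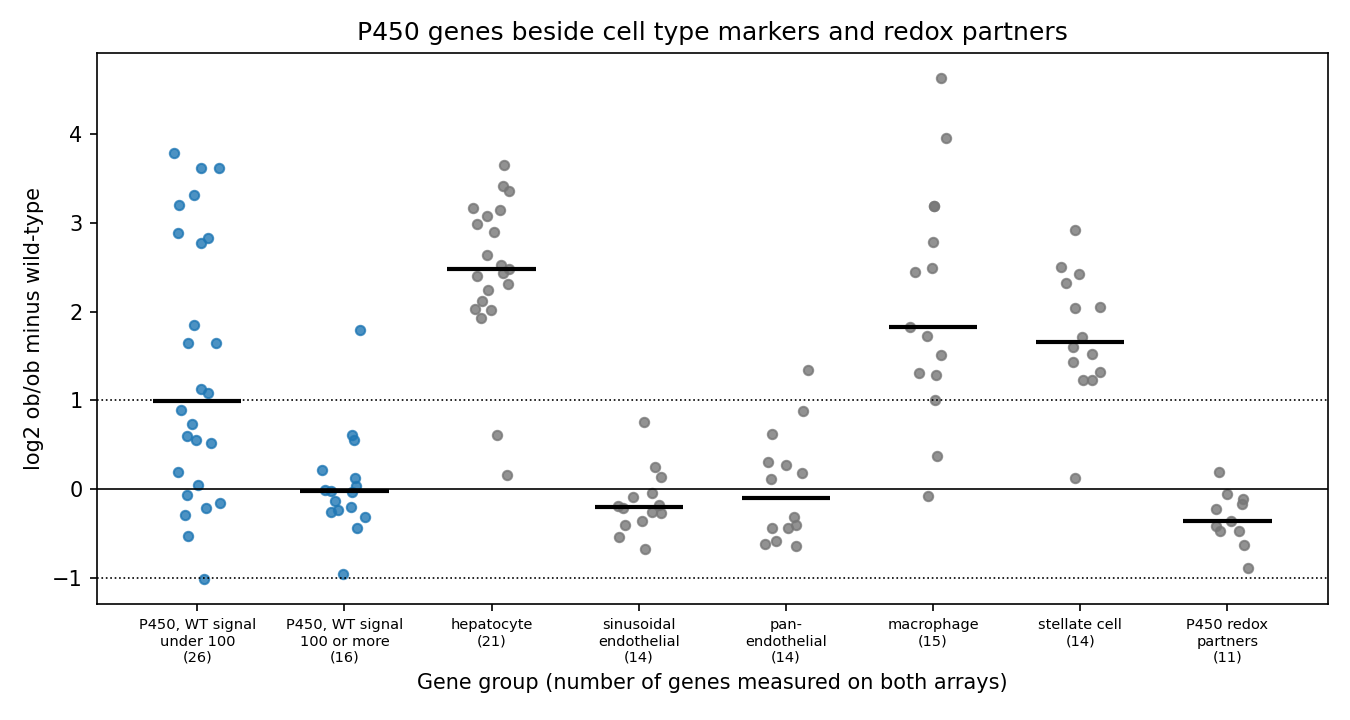
Log2 difference (ob/ob minus wild-type) of genes detected on both, 1 point per gene with the group's median as a bar, for P450 genes split at a wild-type signal of 100, marker lists and P450 redox partners. The dimmer P450 genes have a median of 0.99 (-0.44 after normexp with the 75th percentile) and the brighter ones of -0.026, beside 2.48 for hepatocyte and -0.20 for sinusoidal endothelial markers.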

How the data were processed

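The deposited scanner files hold spot intensity of a 1-colour Agilent mouse array (design 026655, mm9 probe coordinates, per the file headers), made with Agilent Feature Extraction 11.0.1.1 per the submitters' processing notes. It subtracted background and did not scale arrays to each other. The ob/ob file carries 3 digits. The authors' deposited table holds a ratio, the processed intensity over the array's 75th percentile (989 and 1430 here), for 24868 features, 48 of them P450 spots, with column medians of 0.614 and 0.648. Its scale, centring and direction were settled by this match. Here log2 intensity minus log2 of that percentile was used, flagged spots were dropped (2 P450 spots, wild-type) and spots averaged. A probe was called detected when more than 50% of its spots were well above background, and 58.6% and 64.8% of all spots were. The dimmest detected signals, 12.3 and 11.7, set the bounds. The brightest probe detected on both arrays, else the brightest, stood for a gene. Of 19 P450 genes with several probes, 9 had some detected on the ob/ob array and others not. These were Cyp21a1, Cyp2c37, Cyp2c38, Cyp2c54, Cyp2d34, Cyp2j13, Cyp2j8, Cyp2u1 and Cyp4a31. Technical spread was a median SD of 0.05 over probes spotted 10 times and 0.33 between probes of a gene. Clusters were probes under 1000000 bases apart, 3 genes or more. Named P450 genes were those past 2-fold or a 2-fold bound, the nearest to no difference per family, the brightest and 15 classical enzymes, with Por, Ahr, Alas1, Alb, Stab2 and further members added to describe subfamilies. Members, lists and markers were chosen with earlier results of these data known. Software was Python 3.11.15, pandas 2.3.3 and R 4.3.3 with limma 3.58.1 for normexp and quantile normalization. Alternatives are given in the closing section.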

Additional observations from a re-analysis of the deposited data

How the results depend on the processing

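With 1 array per genotype the precision is limited by the number of arrays, and signals near background are limited most. The 14 higher P450 genes became 33 where genes detected on at least 1 array were counted at face value, 6 after normexp with either the 75th percentile or quantile normalization, and 1 where a signal of 100 was required on both arrays. The 1 lower gene became 3 with genes detected on at least 1 array, 7 after normexp with the 75th percentile, 0 after normexp with quantile normalization, 0 with a signal of 100 on both and 2 after scaling on the array median. The median of 0.37 became 1.02 with genes detected on at least 1 array, -0.31 after normexp with the 75th percentile (0.14 with quantile normalization) and -0.026 with a signal of 100 on both arrays. Scaling on the array median moved the median of all genes by -0.28 and normexp with the 75th percentile by -0.17. Of 26 single differences followed, normexp with the 75th percentile reversed 7, namely Cyp2a4 (-0.082), Cyp2c37 (-0.85), Cyp2c70 (-0.30), Cyp2d40 (-0.17), Cyp4a10 (-0.40), Cyp4a31 (-0.43) and Cyp4v3 (-0.014), and took Cyp3a13 to -1.29, and normexp with quantile normalization took 9 under 2-fold. The cause was not tested. Averaging a gene's probes moved none of the 26 across 2-fold, but only 4 P450 genes had several probes detected on both. The authors' deposited values also moved none, but they hold the same intensity over the same percentile and could hardly differ. Requiring 1 rather than over 50% of spots above background left 22 genes detected in ob/ob alone and 2 in wild-type alone. That rule can act only on probes spotted more than once. The alternatives for the bounds were chosen after seeing the data. No paired analysis was possible because each genotype has 1 array.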
